A study of Mus musculus with 4 samples.

Results

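The genes described are the 53 of 17230 rows of the count table that belong to the WNT ligand, Frizzled, SFRP, DKK, R-spondin, LGR, AXIN and NKD families or are 1 of a short list of further receptors, antagonists, ligases and transcription factors. The rule uses gene names only, and the list was drawn up with earlier results of these data known. They were measured by bulk RNA sequencing in stromal cells sorted from femurs of mice at postnatal day 21. These are CXCL12-abundant reticular (CAR) cells, marrow stromal cells that make the chemokine CXCL12. All 4 libraries came from mice with GFP at 1 Cxcl12 allele (Cxcl12(GFP/+)) and a Cre-dependent tdTomato reporter (R26R(tdTomato/+)), given tamoxifen at embryonic day 12.5. The 2 libraries named Hes1-derived in the labels and plots (Hes1-lineage in the text), replicates 1 and 3, carry Hes1(CreER/+), so that the lineage mark followed Hes1 expression and 1 Hes1 allele held the Cre. The 2 named Fgfr3-derived (Fgfr3-lineage in the text), replicates 2 and 3, carry the Fgfr3-iCreER transgene. By its title, the series asks how CAR cells that arose from perichondrium of the fetus compare with those that arose from chondrocytes. The labels do not say whether a library was 1 mouse or a pool, and the p-values measure the spread between these libraries. The label for the cell type gives both GFP and tdTomato for sorting, while the extraction protocol names tdTomato alone and a droplet single-cell platform that does not match the bulk count table.

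WNT proteins are secreted, lipid-modified ligands that bind Frizzled receptors together with the co-receptors LRP5 and LRP6 or ROR1 and ROR2. In the branch that acts through beta-catenin, the signal reaches TCF/LEF transcription factors, whereas ROR receptors and ligands such as WNT5A are known mainly for branches that do not use beta-catenin. R-spondins raise the signal by binding LGR receptors and removing the ubiquitin ligases ZNRF3 and RNF43, and secreted antagonists such as WIF1, the SFRPs and the DKKs hold it down. In bone the pathway is known for its part in osteoblast formation, and several antagonists are made by marrow stromal cells and by bone cells.

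The libraries held between 22745128 and 26804832 counted reads, of which 65443 and 40159 lay on the 53 WNT genes in Hes1-lineage replicates 1 and 3, and 113735 and 93852 in Fgfr3-lineage replicates 2 and 3. Defining CAR markers were present in every library, with Cxcl12 between 4180 and 9764 CPM (reads scaled to the library's TMM-adjusted total). Over all tested genes, edgeR called 5.24% higher and 6.56% lower in the Hes1-lineage libraries (adjusted p under 0.05). Several marker lists of blood cells were higher in these libraries. Of 14 tested pan-leukocyte markers 10 were higher in them, with summed levels of 7217 and 8333 CPM against 2005 and 4322 CPM, and of 16 B lymphocyte markers 15 were higher, with 3069 and 3015 CPM against 745 and 872 CPM. Of 10 erythroid markers 9 were higher, with 8130 and 4563 CPM against 1247 and 1843 CPM. Of 14 neutrophil markers only 1 was called higher, of 14 macrophage and osteoclast markers 4, and of 10 tested megakaryocyte markers 0. The neutrophil marker sums were 29378 and 34930 CPM against 9691 and 23471 CPM. They were above those of the CAR stroma markers (18120 and 12061 against 26269 and 17654 CPM) in both Hes1-lineage libraries and in Fgfr3-lineage replicate 3. Of 15 tested osteoblast markers 10 were lower, with 5961 and 5779 CPM against 29879 and 35479 CPM, and Mepe was at 0 in at least 1 library. Of 10 pericyte and smooth muscle markers 7 were lower, with 160 and 131 CPM against 501 and 378 CPM. Of 13 chondrocyte markers 0 were called by edgeR or DESeq2, and their sums of 712 and 2488 CPM against 4098.5 and 579 CPM were high in Hes1-lineage replicate 3 and Fgfr3-lineage replicate 2. Hes1-lineage replicate 3 had the lowest level of the GFP transgene row, 3204 CPM against 6669, 9264 and 6754 CPM in Hes1-lineage replicate 1 and Fgfr3-lineage replicates 2 and 3. The part of these cell-mixture values in the WNT differences was not tested, and in bulk RNA fewer cells of a type and less RNA per cell cannot be told apart.

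Of the 53 WNT genes 43 passed the low-count filter and were tested. With edgeR's quasi-likelihood test and an adjusted p under 0.05 over all 14330 tested genes, 9 were lower in the Hes1-lineage libraries and 1 was higher. The lower genes were Wnt4 and Wnt5a (ligands), Fzd1 and Fzd3 (receptors), Rspo3 (an R-spondin), Wif1 and Apcdd1 (antagonists), Nkd2 (a feedback inhibitor) and Tcf7l2 (a transcription factor). The higher gene was Lgr5, a receptor for R-spondins. The 9 lower genes were 20.9% of those tested, where 6.56% of all tested genes were called lower, and the 1 higher gene was 2.33%, where 5.24% of all genes were called higher. The median log2 fold change, Hes1-lineage minus Fgfr3-lineage, was −0.90 over the 43 WNT genes and −0.02 over all tested genes. The 9 lower calls fell to 1 with scaling to CAR stroma markers and to 0 with scaling to GFP. The lower calls over all genes fell from 940 to 149 and 19 with these scalings. Lower calls also became fewer without Hes1-lineage replicate 3 or without Fgfr3-lineage replicate 2, among WNT genes and among all genes.

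**Figure D1:**
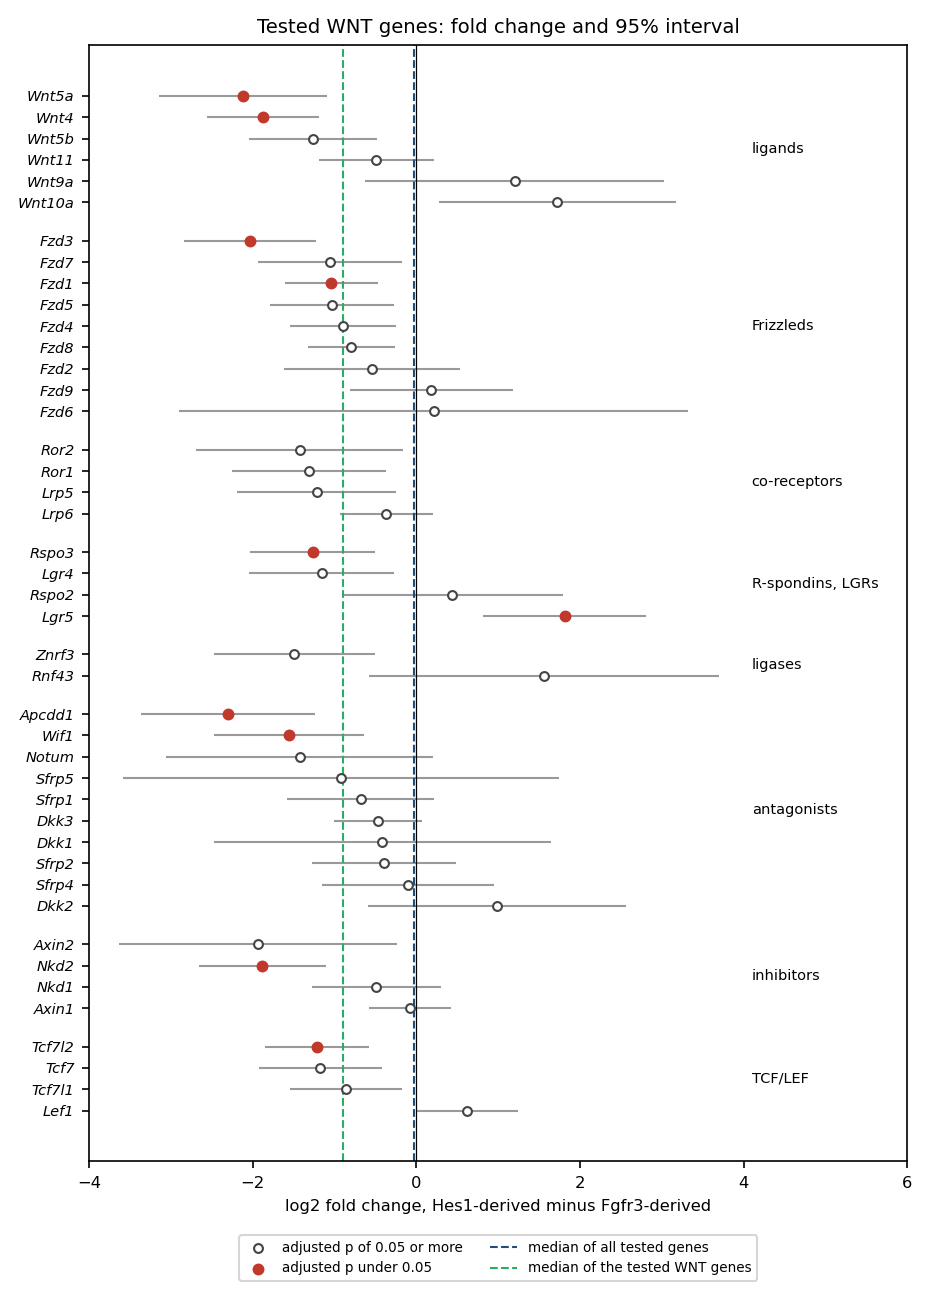
Log2 fold change of each of the 43 tested WNT genes, grouped by role, on the x axis, with bars for the unadjusted 95% interval; filled points passed the test (adjusted p under 0.05), and dashed lines mark the medians of the WNT genes (−0.90) and of all tested genes (−0.02). Of the points, 34 lie below 0 and 9 above it, where 7373 and 6957 of all tested genes do.

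DESeq2 called 20 WNT genes lower (46.5%) and 2 higher (4.65%), against 10.9% and 9.97% of all genes. The 2 higher genes were Lgr5 and the ligand gene Wnt10a. In CPM, both Hes1-lineage libraries lay under both Fgfr3-lineage libraries for 28 of the 43 genes (65.1%) and over them for 5 (11.6%), where 32.1% and 29.8% of all tested genes did so. The other 10 genes overlapped between the groups. The differences between the 2 libraries of a group were also larger for these genes than over all genes. On the log2 scale the root mean square difference between the Hes1-lineage libraries was 0.883 for the WNT genes and 0.534 for all tested genes, and between the Fgfr3-lineage libraries it was 0.627 and 0.587.

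**Figure D2:**
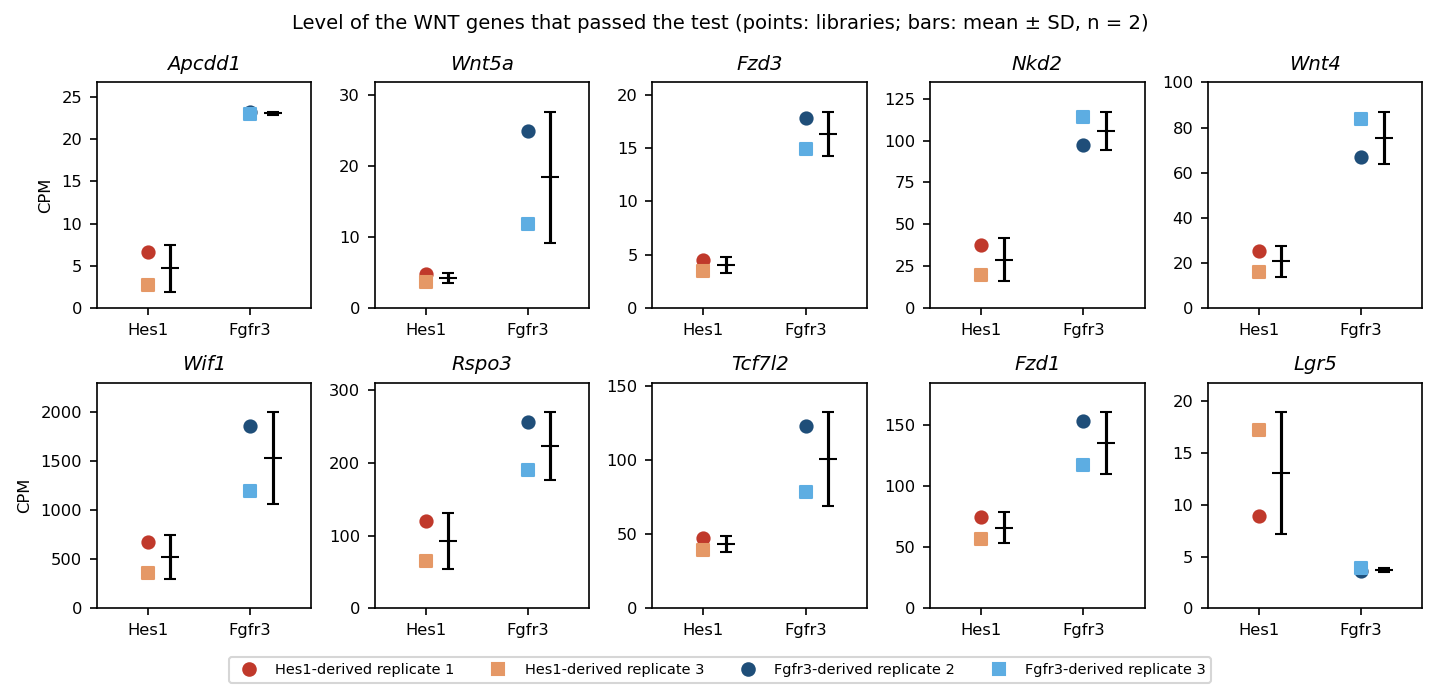
Level in CPM (y axis) of the 10 WNT genes that passed the test, with 1 point per library and the mean ± SD of each group (n = 2) beside the points; circles and squares tell the replicates apart as in the key. The groups do not overlap for any of the 10, which were picked by a test on these same values, so this is no separate support. Over all tested genes the Hes1-lineage libraries lay under the others for 32.1% and over them for 29.8%. Lgr5 is the gene of the 10 with the Hes1-lineage libraries on top.

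Levels per kilobase of exon put the genes in order within each role. Among ligands, Wnt11 and Wnt4 had the highest mean level over the 4 libraries, at 12.1 and 11.4 CPM per kb, followed by Wnt5b (8.63), Wnt10a (2.47), Wnt5a (1.44) and Wnt9a (0.726). Among receptors Fzd1 led with 23.9 CPM per kb, ahead of Fzd8 (9.12). The antagonists Wif1 (422 CPM per kb) and Sfrp4 (165) stood above every other gene of the list, and Rspo3 (51.1) came next.

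**Figure D3:**
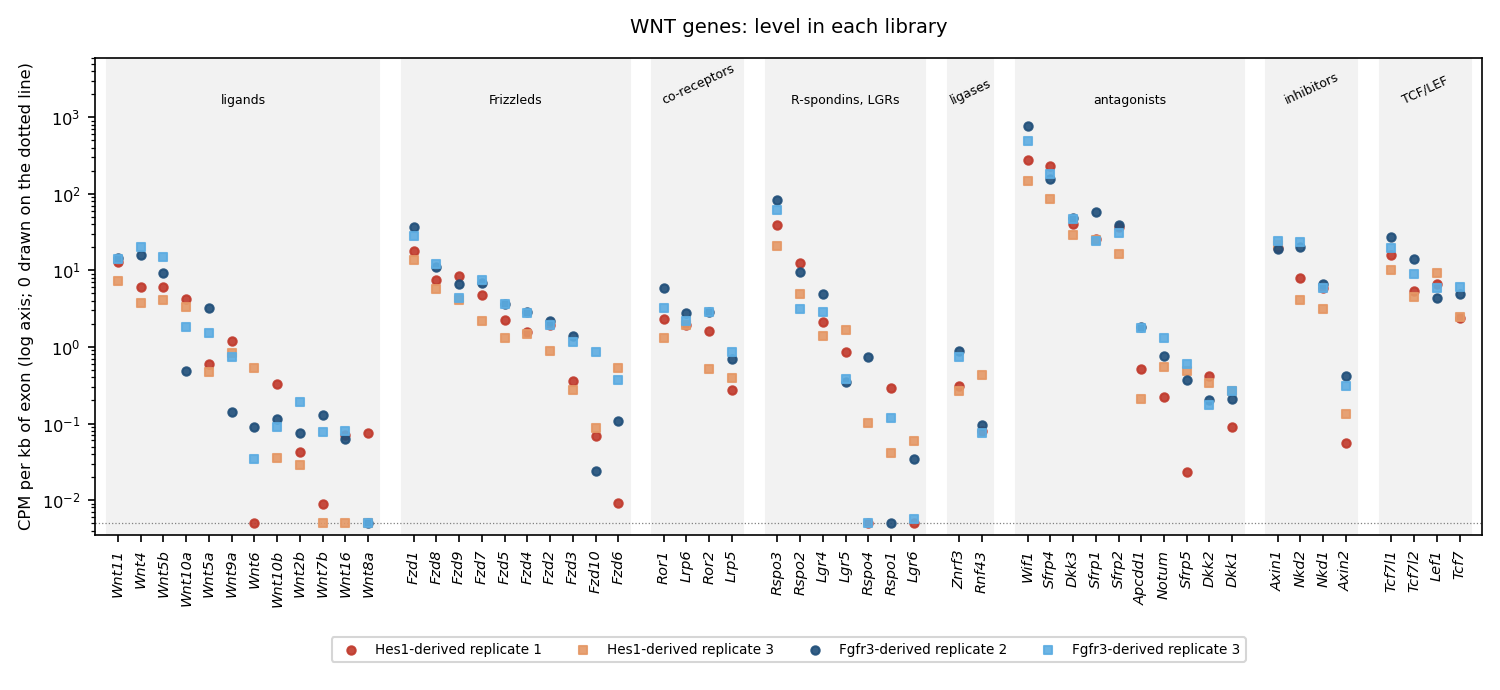
Level of all 53 WNT genes in each library, as CPM per kilobase of exon on a log axis, grouped by role and ordered by mean level within it; a level of 0 is drawn on the dotted line at 0.005. The antagonists Wif1 and Sfrp4 stand highest, and the 12 ligands spread from 19.9 CPM per kb at most down to 0.

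Wnt4 and Wnt5a were the ligand genes that fell. Wnt4, on chromosome 4 (GRCm38, 137277489 to 137299726), had 25.4 and 15.8 CPM in Hes1-lineage replicates 1 and 3, beside 67.1 and 83.6 CPM in Fgfr3-lineage replicates 2 and 3. Both Fgfr3-lineage values were thus above both others, and the difference was 3.66-fold (log2 fold change −1.87 ± 0.29 SE, adjusted p = 0.018). With 1 library left out the log2 fold change of Wnt4 ran from −2.26 to −1.57. Its call in edgeR's test ended with scaling to CAR stroma markers (adjusted p = 0.086) and to GFP (adjusted p = 0.39). Wnt5a, on chromosome 14 (28504750 to 28527448), had 4.75 and 3.71 CPM against 24.9 and 11.9 CPM (log2 change −2.12 ± 0.44, adjusted p = 0.028). The Fgfr3-lineage libraries differed from each other, but both lay above the Hes1-lineage libraries. The call for Wnt5a ended without Hes1-lineage replicate 3 (adjusted p = 0.11) and without Fgfr3-lineage replicate 2 (adjusted p = 0.11). An antisense gene overlaps its exons, and its reads may include that gene's. Genes on the opposite strand also overlap exons of Wnt7b, Wnt11, Fzd5, Fzd6, Rspo3, Sfrp2, Notum, Axin2, Lef1 and Tcf7l1, to which the same limit applies.

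Wnt11, the ligand gene with the highest mean level per kb over the 4 libraries, did not pass. Its 53.6 and 29.8 CPM in Hes1-lineage libraries lay below the 59.7 and 57.5 CPM of the Fgfr3-lineage ones (−0.49, 95% interval −1.19 to 0.21, adjusted p = 0.32). Wnt5b, a close relative of Wnt5a, had 15.97 and 10.96 CPM against 24.9 and 39.8 CPM (log2 change −1.26 ± 0.33, adjusted p = 0.052). Wnt10a and Wnt9a had positive log2 fold changes, and for both the Hes1-lineage libraries lay above the others. Wnt10a, a ligand known for signalling through beta-catenin, stood at 10.6 and 8.18 CPM against 1.18 and 4.47 CPM (log2 change 1.72 ± 0.62, adjusted p = 0.11). DESeq2 called Wnt10a higher (adjusted p = 0.026), as it did 9.97% of all genes. Wnt9a had 4.0 and 2.74 CPM against 0.473 and 2.45 CPM (log2 change 1.20, adjusted p = 0.35). The other 6 ligand genes, Wnt2b, Wnt6, Wnt7b, Wnt8a, Wnt10b and Wnt16, were below the filter and were not tested.

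The make-up of the ligand transcripts within a library needs no scaling between libraries. Wnt4 held 19.2% and 18.5% of the summed ligand CPM per kb in Hes1-lineage replicates 1 and 3, and 36.3% and 37.4% in Fgfr3-lineage replicates 2 and 3. Wnt10a held 13.5% and 16.3% against 1.09% and 3.40%. Per kb, there were 0.468 and 0.521 Wnt4 reads for each Wnt11 read in Hes1-lineage libraries, and 1.11 and 1.43 in Fgfr3-lineage libraries. Wnt4 and Wnt11 therefore stood in opposite order in the 2 groups. These shares and ratios, and those given below for other roles, are descriptions with no test. Wnt4 was called lower on these same values, so its smaller share is no separate support.

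**Figure D4:**
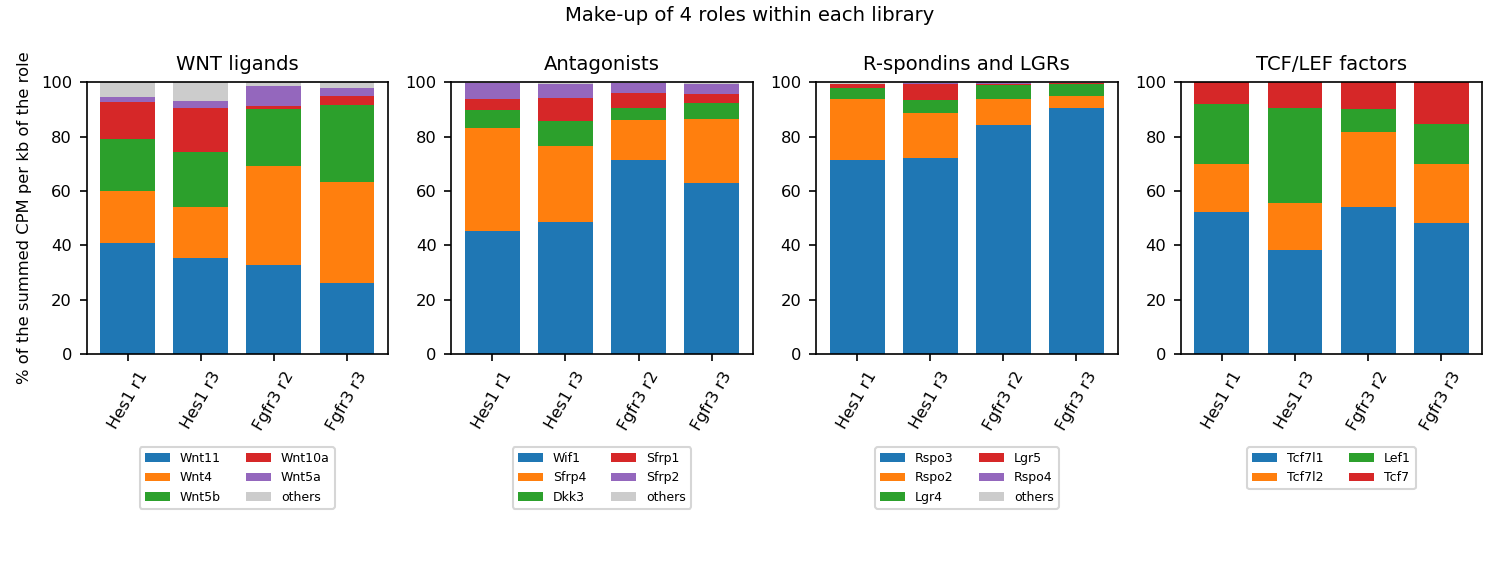
Make-up of 4 roles within each library, as percent of the summed CPM per kb of the role (y axis), with libraries on the x axis (Hes1 r1 and r3, Fgfr3 r2 and r3) and colours for the 5 genes with the largest shares or, for the TCF/LEF factors, all 4 genes. Wnt4, Wif1, Rspo3 and Tcf7l2 each hold a smaller share in both Hes1-lineage libraries. Each was called lower on these same values, so this is no separate support.

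All 4 co-receptor genes had negative log2 fold changes, as did 7373 of all 14330 tested genes. The change of Lrp6 turned positive with either stromal scaling, and none of the 4 genes passed. Ror1, a receptor of WNT5A, had 13.3 and 7.62 CPM in Hes1-lineage libraries and 33.4 and 18.6 CPM in Fgfr3-lineage libraries (−1.31 ± 0.40, adjusted p = 0.076). For Ror1, Ror2, Lrp5 and Lrp6 alike both Hes1-lineage libraries lay under both others, as for 32.1% of all tested genes. Lrp6, a co-receptor of the beta-catenin branch, had 26.1 CPM in each Hes1-lineage library against 37.8 and 29.6 CPM (log2 change −0.37, 95% interval −0.93 to 0.20). Lrp5 (−1.22) had an interval of −2.19 to −0.25 and Ror2 (−1.43) one of −2.69 to −0.16. In edgeR's test 3 of the 4 had an unadjusted p under 0.05, all but Lrp6, where 30.1% of all tested genes did. DESeq2 called Ror1 (adjusted p = 0.014) and Ror2 (adjusted p = 0.046) lower, as it did 10.9% of all genes.

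Fzd1 and Fzd3 were the receptor genes that fell, of 9 tested Frizzled genes. Fzd3, on chromosome 14 (65192449 to 65262463), had 4.53 and 3.47 CPM in Hes1-lineage libraries and 17.8 and 14.9 CPM in Fgfr3-lineage libraries, a 4.08-fold difference (−2.03 ± 0.34, adjusted p = 0.020). Its replicates lay close together beside the distance between groups. Fzd1, on chromosome 5 (4753839 to 4758035), was the most abundant Frizzled gene and had 74.8 and 56.7 CPM against 153 and 117 CPM (log2 change −1.04 ± 0.24, adjusted p = 0.038). Both calls ended without Hes1-lineage replicate 3 and without Fgfr3-lineage replicate 2, at adjusted p = 0.076 and 0.062 for Fzd3 and 0.19 and 0.12 for Fzd1, and that of Fzd1 also without Hes1-lineage replicate 1 (adjusted p = 0.052).

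A further 5 Frizzled genes, Fzd2, Fzd4, Fzd5, Fzd7 and Fzd8, lay lower in both Hes1-lineage libraries without passing, as did 32.1% of all tested genes, called or not. Per GFP read 4 of these 5, all but Fzd7, overlapped between the groups. Fzd8 had 45.1 and 34.6 CPM against 65.3 and 72.8 CPM (log2 change −0.79 ± 0.23, adjusted p = 0.065). The log2 fold changes of the other 4 were between −1.05 (Fzd7) and −0.54 (Fzd2). DESeq2 called Fzd4, Fzd5, Fzd7 and Fzd8 lower, as it did 10.9% of all genes. Fzd9 and Fzd6 overlapped between the groups, with log2 fold changes of 0.18 and 0.21. The interval of Fzd6, with 1 to 64 reads a library, ran from −2.90 to 3.32 and set almost no limit. Fzd10 was not tested. Within the Frizzled sum, the share of Fzd1 overlapped between the groups (39.9% and 44.9% against 51.3% and 44.5%).

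Of the R-spondin genes tested, Rspo3 fell and Rspo2 did not pass; the difference between them was not tested. Rspo3, on chromosome 10 (29452416 to 29535867), had 120 and 65.1 CPM in Hes1-lineage and 256 and 190 CPM in Fgfr3-lineage libraries, which did not overlap (−1.27 ± 0.33, adjusted p = 0.049). Rspo2 had 63.1 and 25.2 CPM in Hes1-lineage and 48.9 and 16.1 CPM in Fgfr3-lineage libraries (0.44, 95% interval −0.91 to 1.79). The Rspo2 values of the groups interleaved, and the SD within each group, 26.8 and 23.2 CPM (n = 2), was larger than the distance between the means of 44.1 and 32.5 CPM. Rspo3 reads stood per kb at 3.16 and 4.28 for each Rspo2 read in Hes1-lineage libraries and at 8.66 and 19.5 in Fgfr3-lineage libraries. The call for Rspo3 ended without Hes1-lineage replicate 3 (adjusted p = 0.18), without Fgfr3-lineage replicate 2 (adjusted p = 0.14) and with non-robust dispersions (adjusted p = 0.0503). An antisense gene overlaps its exons. Rspo1 and Rspo4 were not tested.

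Lgr5, a leucine-rich repeat receptor for R-spondins that marks stem cells in several epithelia, was the gene that rose. It is on chromosome 10 (115450311 to 115587780). It had 8.93 and 17.2 CPM in Hes1-lineage replicates 1 and 3 and 3.59 and 3.86 CPM in Fgfr3-lineage replicates 2 and 3, a 3.51-fold difference (1.81 ± 0.42, adjusted p = 0.038). The Fgfr3-lineage libraries lay close together, while the Hes1-lineage libraries differed, at 203 and 428 reads. Its call ended without Hes1-lineage replicate 3 (adjusted p = 0.22), Fgfr3-lineage replicate 2 (adjusted p = 0.12) or Fgfr3-lineage replicate 3 (adjusted p = 0.063). Its paralog Lgr4 had 12.4 and 8.06 CPM against 28.9 and 16.7 CPM (log2 change −1.16, adjusted p = 0.088), so both Hes1-lineage libraries lay above the others for Lgr5 and under them for Lgr4. B lymphocyte markers were higher in the same libraries as Lgr5 (15 of 16), and their part in its value was not tested. Lgr6 was below the filter.

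Neither ubiquitin ligase passed. In edgeR's test 1 of the 2, Znrf3, had an unadjusted p under 0.05, where 30.1% of all tested genes did. DESeq2 called Znrf3 lower (adjusted p = 0.027), as it did 10.9% of all genes. Znrf3, itself a reported target of the pathway, had 2.46 and 2.10 CPM in Hes1-lineage and 6.98 and 5.85 CPM in Fgfr3-lineage libraries (−1.49 ± 0.42, adjusted p = 0.062). Rnf43 had 0.528 and 2.82 CPM against 0.631 and 0.497 CPM, so that Hes1-lineage replicate 3 alone stood apart (1.57 ± 0.91, adjusted p = 0.30).

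Wif1 and Apcdd1 were the antagonist genes that fell, of 10 tested. Wif1, which encodes a secreted protein that binds WNT ligands, is on chromosome 10 (121033960 to 121100650) and was the most abundant WNT gene. It had 679 and 360 CPM in Hes1-lineage and 1859 and 1198 CPM in Fgfr3-lineage libraries, a 2.94-fold difference (−1.56 ± 0.39, adjusted p = 0.047). Both groups spread widely, yet the lowest Fgfr3-lineage value lay above the highest Hes1-lineage one. Apcdd1, a membrane protein that binds WNT and LRP5, had 6.69 and 2.70 CPM against 23.2 and 23.0 CPM, a 4.93-fold difference (−2.30 ± 0.45, adjusted p = 0.026). Without Hes1-lineage replicate 3 and without Fgfr3-lineage replicate 2 both calls ended, at adjusted p = 0.16 and 0.14 for Wif1 and 0.056 and 0.064 for Apcdd1.

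Sfrp4, a secreted Frizzled-related protein, did not pass. It had 977 and 355 CPM in Hes1-lineage and 662 and 766 CPM in Fgfr3-lineage libraries (−0.10, 95% interval −1.15 to 0.95, adjusted p = 0.91). The Hes1-lineage replicates lay on either side of both Fgfr3-lineage ones. Wif1 held 45.3% and 48.6% of the summed antagonist CPM per kb in Hes1-lineage libraries and 71.4% and 63.0% in Fgfr3-lineage libraries, while Sfrp4 held 37.8% and 27.8% against 14.8% and 23.4%. The remaining antagonists did not pass. Among them Dkk3 (−0.47), Sfrp1 (−0.68) and Sfrp2 (−0.40) were abundant. In Sfrp1 a single library stood apart, Fgfr3-lineage replicate 2 with 252 CPM against 105 to 113 CPM in the others. Notum, Sfrp5, Dkk1 and Dkk2 had at most 3.17 CPM in any library. Dkk2 was the antagonist gene with both Hes1-lineage libraries on top (1.54 and 1.25 against 0.749 and 0.650 CPM, adjusted p = 0.37).

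Among the intracellular inhibitors, several of which are also targets of the pathway, Nkd2 fell. Nkd2 encodes a protein that binds Dishevelled and is on chromosome 13 (73818534 to 73847631). It had 37.9 and 19.6 CPM in Hes1-lineage and 97.6 and 114 CPM in Fgfr3-lineage libraries, a 3.68-fold difference (−1.88 ± 0.33, adjusted p = 0.021). With 1 library left out its log2 fold change ran from −2.43 to −1.48. As for Wnt4, the call in edgeR's test ended with scaling to CAR stroma markers (adjusted p = 0.082) and to GFP (adjusted p = 0.38). Its paralog Nkd1 had 26.6 and 14.1 CPM against 30.2 and 26.9 CPM (log2 change −0.49, 95% interval −1.28 to 0.30). Per kb, Nkd2 had 1.34 and 1.31 reads for each Nkd1 read in Hes1-lineage libraries and 3.06 and 4.0 in Fgfr3-lineage libraries.

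Axin2, a widely used readout of beta-catenin signalling, was barely detected, with 7 and 18 reads in Hes1-lineage and 58 and 45 reads in Fgfr3-lineage libraries. This made 0.308 and 0.725 CPM against 2.29 and 1.72 CPM, and the groups did not overlap, but the difference did not pass (−1.94 ± 0.72, 95% interval −3.64 to −0.24, adjusted p = 0.12). An antisense gene overlaps its exons. Axin1, a scaffold of the beta-catenin destruction complex, had 75.2 and 82.0 CPM against 73.6 and 91.6 CPM (log2 change −0.07, 95% interval −0.57 to 0.43, adjusted p = 0.86).

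Tcf7l2 was the TCF/LEF gene that fell. It is on chromosome 19 (55741820 to 55933654) and had 47.2 and 39.4 CPM in Hes1-lineage and 123 and 78.4 CPM in Fgfr3-lineage libraries (−1.22 ± 0.27, adjusted p = 0.033). The call ended in each fit that left out Hes1-lineage replicate 1 (adjusted p = 0.060), Hes1-lineage replicate 3 (adjusted p = 0.15) or Fgfr3-lineage replicate 2 (adjusted p = 0.11). Tcf7l1, the most abundant of the 4 per kb, had 62.1 and 39.7 CPM against 108 and 76.4 CPM (log2 change −0.86 ± 0.29, adjusted p = 0.098). Tcf7 had 6.33 and 6.53 CPM against 12.9 and 16.1 CPM (log2 change −1.18 ± 0.32, adjusted p = 0.057). Lef1 stood the other way, at 58.3 and 81.5 CPM against 38.4 and 52.5 CPM (log2 change 0.62, 95% interval 0.0025 to 1.24, adjusted p = 0.165). Lef1 and Tcf7 are also known from lymphocyte precursors. B lymphocyte markers were higher in the Hes1-lineage libraries (2.29 in median log2 fold change, none of 16 at 0), where Lef1 lay higher and Tcf7 lower. Of the T lymphocyte and NK cell markers 2 of 14 tested were higher, with summed levels of 156 and 204 CPM against 66.0 and 128 CPM, and Cd3e and Cd3g were at 0 in at least 1 library. The part of these cells in the Lef1 and Tcf7 values was not tested. Per kb, Tcf7l2 had 0.810 and 0.484 reads for each Lef1 read in Hes1-lineage libraries and 3.20 and 1.497 in Fgfr3-lineage libraries. For each Tcf7l1 read Tcf7l2 had 0.340 and 0.444 in Hes1-lineage and 0.508 and 0.459 in Fgfr3-lineage libraries.

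Sequences upstream of start sites were read from RefSeq windows (GRCm38.p6) for 33 of the 53 WNT genes. The 250 bases before each start were searched on both strands for CTTTG followed by AT, AA, TT or TA, spellings of the site that TCF/LEF factors bind, which overlap the site of SOX factors. At least 1 spelling was found in 6 of 42 WNT windows (14.3%) and in 4874 of 32851 windows of all genes (14.8%), so the shares were close. The genes with a match were Dkk1, Fzd7, Lef1, Tcf7l2, Wnt11 and Wnt5b, of which Tcf7l2 passed the expression test. The windows of Axin2, Nkd2 and Fzd1 held none, which says only that these letters are not in this window. Shown 5′ to 3′ are both starts of Tcf7l2, a start of Wnt11, and the windows of the feedback genes Nkd2 and Axin2 and the receptor Fzd1, with matches in capitals, written on the strand shown (the Wnt11 match is CTTTGAT on the opposite strand). They lie at chr19:55741560-55741809 (plus strand) and chr19:55895071-55895320 (plus) for Tcf7l2, chr7:98834862-98835111 (plus) for Wnt11, chr13:73847632-73847881 (minus) for Nkd2, chr11:108920099-108920348 (plus) for Axin2 and chr5:4758217-4758466 (minus) for Fzd1.
Tcf7l2, first start: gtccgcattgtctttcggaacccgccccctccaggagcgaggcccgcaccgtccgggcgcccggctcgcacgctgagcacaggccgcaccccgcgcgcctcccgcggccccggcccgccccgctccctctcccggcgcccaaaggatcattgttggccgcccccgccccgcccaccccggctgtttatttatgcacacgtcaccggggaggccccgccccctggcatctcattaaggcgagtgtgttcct
Tcf7l2, internal start: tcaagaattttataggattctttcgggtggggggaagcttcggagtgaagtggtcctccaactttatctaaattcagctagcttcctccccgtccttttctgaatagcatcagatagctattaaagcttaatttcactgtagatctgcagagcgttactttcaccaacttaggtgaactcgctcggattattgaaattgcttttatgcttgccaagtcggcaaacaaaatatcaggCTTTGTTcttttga
Wnt11: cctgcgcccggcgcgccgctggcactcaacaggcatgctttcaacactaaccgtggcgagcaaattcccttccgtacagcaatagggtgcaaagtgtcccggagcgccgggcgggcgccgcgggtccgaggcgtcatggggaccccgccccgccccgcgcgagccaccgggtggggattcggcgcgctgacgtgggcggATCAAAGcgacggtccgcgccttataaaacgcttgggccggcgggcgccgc
Nkd2: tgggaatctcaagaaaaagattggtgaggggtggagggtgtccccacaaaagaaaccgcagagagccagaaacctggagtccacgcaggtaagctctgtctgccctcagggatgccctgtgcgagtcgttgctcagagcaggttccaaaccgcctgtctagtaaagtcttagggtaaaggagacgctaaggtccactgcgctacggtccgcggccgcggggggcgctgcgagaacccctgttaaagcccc
Axin2: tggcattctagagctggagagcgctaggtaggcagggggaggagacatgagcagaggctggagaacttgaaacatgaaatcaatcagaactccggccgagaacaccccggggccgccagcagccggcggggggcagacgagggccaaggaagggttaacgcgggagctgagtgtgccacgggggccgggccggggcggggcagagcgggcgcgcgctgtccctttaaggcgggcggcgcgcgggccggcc
Fzd1: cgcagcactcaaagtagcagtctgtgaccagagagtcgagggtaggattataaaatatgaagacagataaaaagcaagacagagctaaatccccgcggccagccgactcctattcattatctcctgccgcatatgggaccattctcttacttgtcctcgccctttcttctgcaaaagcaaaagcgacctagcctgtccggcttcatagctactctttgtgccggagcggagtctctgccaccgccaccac
The match of Tcf7l2 begins 14 bases before its internal start and that of Wnt11 begins 51 bases before the start shown. GC content was 40.8% before the internal and 72.8% before the first Tcf7l2 start, 70.8% for Wnt11, 58.4% for Nkd2, 69.2% for Axin2 and 51.2% for Fzd1, and its median was 65.2% over the WNT windows and 52.4% over all windows. The counts are per gene, so they do not tell which Tcf7l2 start was used.

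Other genes of the pathway, numbered 87, of which 83 were tested. In the Hes1-lineage libraries 17 were lower (20.5%) and 3 higher (3.61%), where 6.56% and 5.24% of all tested genes were. The share of higher genes was thus below that of all genes. The median log2 fold change was −0.64, beside −0.02 over all tested genes. Lowest in p among the 17 were Wisp1, a reported target that encodes a matricellular protein (46.3 and 29.5 against 205 and 224 CPM, −2.50 ± 0.27, adjusted p = 0.013), the osteoblast regulator Runx2 (−1.46 ± 0.24), the transcription factor gene Twist1 (−1.71 ± 0.32) and, tied with each other, the WNT receptor gene Ryk (−1.41 ± 0.27) and the fibronectin gene Fn1 (−1.15 ± 0.22). The 3 higher genes were Frat2, which encodes a GSK3-binding protein (1.23 ± 0.29), Btrc, which encodes the ubiquitin ligase subunit that recognises beta-catenin (0.89 ± 0.22), and Tle4, a co-repressor (0.84 ± 0.22). Osteoblast markers were lower in the same libraries (10 of 15), but Runx2 is itself 1 of these markers, so for it the lists are not separate. The part of osteoblast cells in the values of Wisp1, Runx2 and the other lower genes was not tested.

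By function, 4 of 10 tested genes for WNT secretion and extracellular cofactors were lower, Porcn, Wls, Tspan12 and Cthrc1. Porcn attaches the lipid to WNT proteins and had 31.0 and 17.3 CPM against 56.0 and 69.2 CPM (log2 change −1.37 ± 0.32). Wls carries the ligands to the cell surface and had 241 and 177 CPM against 564 and 386 CPM (log2 change −1.19 ± 0.28). Of 8 further receptors and antagonists 4 were lower (Ryk, Ptk7, Kremen1 and Bambi), of 16 further reported targets 6, of 22 cytoplasmic transducers 1 (Dact3), of 12 nuclear cofactors 2 (Tle2 and Ctnnbip1) and of 15 planar cell polarity genes 0 (edgeR), where 6.56% of all tested genes were lower. Of the planar cell polarity genes 5 had an unadjusted p under 0.05, where 30.1% of all genes did, and DESeq2 called 0. The beta-catenin gene Ctnnb1 itself had 307 and 283 CPM against 573 and 401 CPM (log2 change −0.72 ± 0.26, adjusted p = 0.11).

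Scaling to stromal genes moved the whole comparison. With libraries scaled to the GFP transgene row, the median over all tested genes shifted to 0.83 and the WNT median stood at −0.07. Then 0 WNT genes were called lower by edgeR, and Lgr5 was called higher, where 19 of all genes were called lower and 324 higher. Of the 43, 6 then had an unadjusted p under 0.05, where 17.3% of all tested genes did. With scaling to the summed CAR stroma markers the shift was 0.52 and the WNT median −0.33. Apcdd1 was then called lower and Lgr5 and Wnt10a higher, where 149 of all genes were called lower and 954 higher. A scaling shifts all genes about alike, so the WNT median relative to that of all genes is kept by construction (−0.90 with GFP scaling). With 1 library left out it ranged from −1.08 to −0.79, over the 48 to 50 WNT genes tested in those fits. Levels per GFP read tell how each gene stood beside the GFP at 1 Cxcl12 allele. Per 1000 GFP reads Wnt4 had 3.81 and 4.92 reads in Hes1-lineage and 7.24 and 12.4 in Fgfr3-lineage libraries, and Wif1 had 102 and 112 against 201 and 177. Lgr5 had 1.34 and 5.38 against 0.387 and 0.572, and Wnt10a 1.58 and 2.55 against 0.128 and 0.662.

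**Figure D5:**
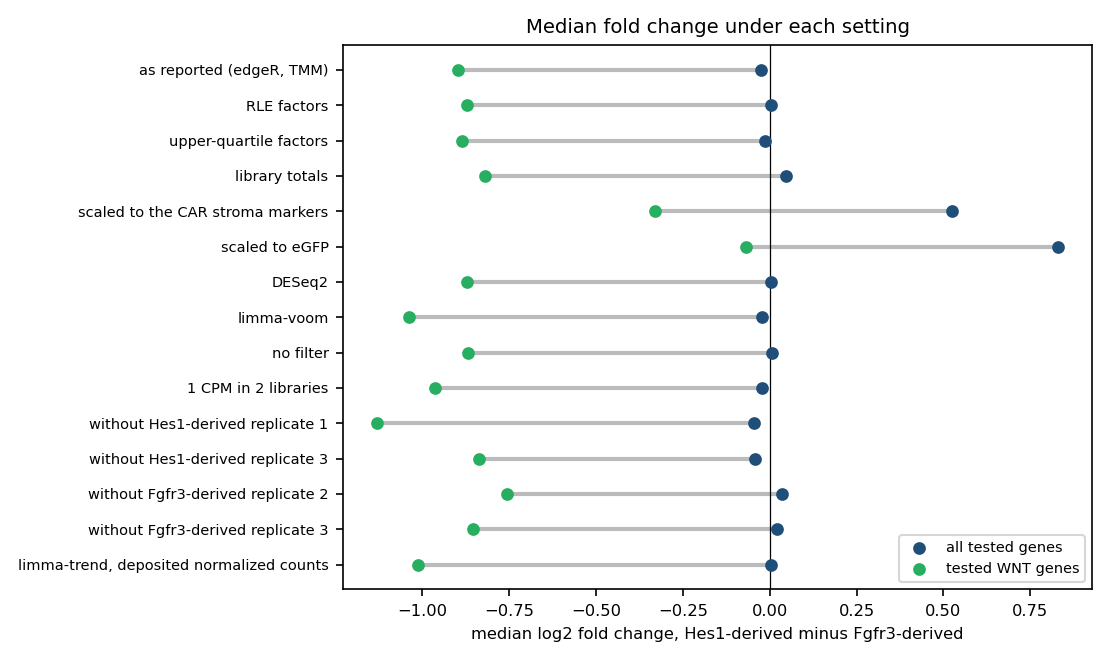
Median log2 fold change (x axis) of the tested WNT genes and of all tested genes under the reported fit and the alternatives (y axis). The genes tested differ between fits, with 40 to 53 WNT genes. The distance between both medians is 0.79 to 1.08 in every fit drawn, which a scaling keeps by construction, and both shift to the right when libraries are scaled to GFP or to CAR stroma markers.

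Per GFP read, both Hes1-lineage libraries lay under both others for 12 of 43 WNT genes (27.9%) and over them for 10 (23.3%), where 8.0% and 46.0% of all tested genes did so. The 12 were Wnt4, Wnt5a, Fzd3, Fzd7, Ror1, Ror2, Rspo3, Znrf3, Wif1, Apcdd1, Nkd2 and Axin2. The 10 were Wnt9a, Wnt10a, Fzd9, Rspo2, Lgr5, Rnf43, Sfrp2, Dkk2, Nkd1 and Lef1. Of the 9 genes called lower, Fzd1 and Tcf7l2 overlapped between the groups on this scale. Summed per kb, the ligands stood at 4.74 and 6.34 per 1000 GFP reads in Hes1-lineage and 4.76 and 7.90 in Fgfr3-lineage libraries and overlapped. The antagonist sum was 92.6 and 95.2 in the Hes1-lineage libraries, below both Fgfr3-lineage libraries, at 116 each. Wif1, itself called lower, made up 60.7% of the antagonist CPM per kb over all libraries, so this sum largely follows 1 gene. Of the other antagonists Apcdd1 lay lower per GFP read, Sfrp2 and Dkk2 lay higher, and Sfrp4, Dkk3, Sfrp1, Notum, Sfrp5 and Dkk1 overlapped.

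The 10 WNT genes below the filter had between 0 and 72 reads in a library, and 7 of them had 0 reads in at least 1 library. A count of 0 allows up to 3 reads, or 0.115 to 0.132 CPM, counting error alone. Wnt7b had 1 and 0 reads in Hes1-lineage and 16 and 10 in Fgfr3-lineage libraries, and Rspo4 had 45 reads in Fgfr3-lineage replicate 2 against at most 6 elsewhere. Fzd10 had 72 reads in Fgfr3-lineage replicate 3 against at most 7 elsewhere. Wnt8a had 3 reads in Hes1-lineage replicate 1 and none in the other libraries, and gives no fold change.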

How the data were processed

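Bulk RNA from 4 libraries, 2 Hes1-derived and 2 Fgfr3-derived, was analysed from tables deposited by the authors. The raw read counts per gene symbol were the main values. The deposited depth-normalized signal (counts divided by 1 size factor per library) and the deposited regularized log2 values served as alternatives chosen after seeing the data. TopHat2 2.0.13, Bowtie2 2.2.1, HTSeq, Cufflinks, Cuffdiff, FastQC and DESeq2 and the build mm10 are named in the submitters' processing notes; no strand setting is given in the sources used here, so reads of overlapping antisense genes cannot be told apart.

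The groups were compared with edgeR 4.0.16 (R 4.3.3; filterByExpr with a minimum count of 10, TMM factors, robust quasi-likelihood test). P-values were adjusted by Benjamini-Hochberg over 14330 genes, with a threshold of 0.05. SE was taken as the absolute log2 fold change over the root of the F statistic; 95% intervals are unadjusted. DESeq2 1.42.0, limma 3.58.1 (voom and trend), other scalings, filters and left-out libraries were alternatives. The script was tested on simulated data. Totals of 22745128 to 26804832 reads and 2 libraries a group set the precision, with a biological coefficient of variation of 27.8%. CPM per kb uses GENCODE exon lengths (GRCm38), matched by symbol for all 53 genes.

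The members and lists were chosen with earlier results of these data known. Values were given for each gene that passed, the 2 most abundant genes and the gene with the smallest p of each role, and of the other pathway genes, those 4 that passed with the lowest p per direction. Further genes given with values, such as Wnt5b, Wnt10a, Lgr4, Lef1, Axin2, Porcn, Wls and Ctnnb1, were chosen after their values were seen.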

Additional observations from a re-analysis of the deposited data

How the results depend on the processing

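The 10 calls were the same genes with RLE factors and with limma-voom, and all 10 were kept with upper-quartile factors, library totals, other low-count filters and limma-trend on the deposited normalized counts. With scaling to CAR stroma markers, edgeR called 1 WNT gene lower and 2 higher, and 2 other pathway genes lower and 1 higher. Of all genes it called 149 lower and 954 higher. With GFP scaling it called 0 WNT genes lower, 0 other pathway genes lower and 0 higher, and 19 of all genes lower and 324 higher. Higher genes were 44.4% of all calls as reported, 86.5% with CAR stroma scaling and 94.5% with GFP scaling. DESeq2 called 20 WNT genes lower and 2 higher, 30 other pathway genes lower, and 1557 of all genes lower and 1429 higher. An adjusted p under 0.10 gave 19 WNT and 27 other pathway genes lower, and 1664 of all genes lower and 1411 higher. The WNT median was −0.33 with CAR stroma scaling, −0.069 with GFP scaling and −0.42 in the deposited regularized log2 values. Leaving out 1 library gave 2 to 12 WNT genes lower and 0 to 1 higher, 1 to 15 other pathway genes lower and 0 to 1 higher, and 181 to 998 of all genes lower and 183 to 1225 higher. In those fits the lone library is assumed to vary like the other group.

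Of the 43 tested WNT genes the sign turned for 15 in at least 1 alternative fit, and for 0 of the 10 that had passed. Those 10 were picked for their changes in these same libraries, so their kept sign is no separate support for the calls. Among the genes named by the rule the sign turned for 6. Axin1 was 0.001 with library totals, 0.45 with CAR stroma scaling and 0.78 with GFP scaling, and ran from −0.20 to 0.14 with 1 library left out. Lrp6 was 0.21 with CAR stroma and 0.51 with GFP scaling, and Wnt11 was 0.21 with GFP scaling. Sfrp4 was 0.28 with CAR stroma and 0.48 with GFP scaling, and −1.01 to 0.45 with 1 library left out. With 1 library left out Rspo2 ran from −0.37 to 1.46, and Rnf43 from −0.094 (without Hes1-lineage replicate 3) to 2.31. The cause was not tested. No paired analysis was possible because the groups compared share fewer than 2 replicate numbers. Genes with few reads, such as Fzd6, Sfrp5 and Dkk1, had intervals too wide to show a difference at this depth.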
